A study of Homo sapiens with 30 samples.

Results

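Vehicle-treated breast cancer cells from 5 established lines were followed through 24 h of culture, and their RNA at 12 and 24 h was set against that of the first hour. Of the 30 arrays of the series, the 20 taken at 30 min, 1 h, 12 h and 24 h entered this comparison, and only their vehicle channel (green, Cy3) was read. The first-hour group held 10 arrays (30 min and 1 h) and the late group held 10 arrays (12 and 24 h), with HCC1954, MDA-MB-231, MDA-MB-361, T-47D and ZR-75-30 each giving 2 arrays to either group. Each vehicle sample was a pool of 3 cultures that had been left to attach in 24-well plates for 24 h before vehicle was added, so that each line and time was 1 array without a repeat. The labels name no genetic change or drug in these cells. The study's methods give 1% serum for MDA-MB-231 and 5% serum for T-47D, and the supplier's recommended conditions for the other lines. The red (Cy5) channel of the same arrays held matched cultures given BMP7, a bone morphogenetic protein, at 50 ng/ml, and it is read at the end as a further set of cultures.

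Immediate early genes are switched on within minutes by serum, growth factors or handling, need no new protein for their induction, and are shut off again soon after. Many of them encode transcription factors, such as the AP-1 subunits FOS, FOSB and JUN and the zinc finger proteins EGR1 to EGR3. Others encode feedback phosphatases such as DUSP1 or secreted matrix proteins such as CCN1 (CYR61) and CCN2. Clock genes, cell cycle genes, sterol synthesis genes and other groups were followed as further lists.

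The sequences just before the start sites of FOS, FOSB and EGR1 are shown because these genes had the lowest p-values of the immediate early list when each gene was read from its probe with the highest mean signal. They are the 250 bases before each start in the RefSeq set (GRCh38.p14), 5′ to 3′ on the gene's strand. Capitals mark the CArG box (the core of the serum response element) and TGACG (the core of the cAMP response element, read on both strands). Of 35116 promoter windows of 250 bases before to 50 after the start, 1.29% held a CArG box and 24.6% held TGACG. CCN1 had no entry in that set.
FOS, chr14:75278578-75278827, plus strand: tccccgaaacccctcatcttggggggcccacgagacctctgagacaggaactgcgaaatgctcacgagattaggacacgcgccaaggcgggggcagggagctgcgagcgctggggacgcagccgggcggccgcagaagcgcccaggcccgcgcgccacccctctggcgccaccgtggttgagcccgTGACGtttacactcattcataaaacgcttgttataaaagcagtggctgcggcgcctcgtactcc
FOSB, chr19:45467746-45467995, plus strand: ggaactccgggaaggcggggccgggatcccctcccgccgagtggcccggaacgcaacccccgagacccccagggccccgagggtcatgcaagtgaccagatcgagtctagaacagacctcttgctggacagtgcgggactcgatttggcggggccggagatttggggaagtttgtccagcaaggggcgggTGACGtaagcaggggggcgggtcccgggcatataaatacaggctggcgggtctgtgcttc
EGR1, chr5:138465229-138465478, plus strand: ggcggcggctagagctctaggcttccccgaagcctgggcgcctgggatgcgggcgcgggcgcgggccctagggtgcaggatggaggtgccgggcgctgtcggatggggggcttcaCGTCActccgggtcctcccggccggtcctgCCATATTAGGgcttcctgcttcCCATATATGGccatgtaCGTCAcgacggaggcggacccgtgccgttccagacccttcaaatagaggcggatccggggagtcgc
The EGR1 window held 2 CArG boxes, whose first bases lay at -105 and -83 from the start, beside TGACG on the opposite strand at -135 and -66. FOS held TGACG at -64 and FOSB at -60, and neither held a CArG box within these bases. A match of letters is a description of the sequence only.

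The arrays read 41000 probes, of which 27745 could be paired with a current symbol and so with 17843 genes. In the vehicle channel 60.3% to 69% of the probes of an array were well above background. Values are log2 signals after subtraction of the array's median, so that 0 is the median probe. Signals of different genes are not compared, since each probe has its own response. In 0 of the 5 lines did a late array share a slide with a first-hour array, so that slide and period cannot be told apart within a line. A second scan batch held 3 of the 30 min arrays (those of ZR-75-30, MDA-MB-231 and HCC1954), whereas all late arrays belonged to the first batch. The epithelial genes EPCAM, KRT8, KRT18, KRT19, CDH1 and CLDN4 were well above background on all 20 arrays, and none of the 6 passed an unadjusted p of 0.05 between the periods. ESR1, the estrogen receptor, was well above background on 0 of 4 arrays in MDA-MB-231 and on 4 of 4 in T-47D. ERBB2 averaged 10.5 in HCC1954, 10.4 in MDA-MB-361 and 9.81 in ZR-75-30, against 4.96 in MDA-MB-231 on the same scale.

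The probes that passed the test read immediate early genes, a clock gene and a zinc finger gene, and all of them were lower late. Across all 41000 probes, 6 probes of 5 genes passed an adjusted p of 0.05 (limma, line as a block, Benjamini-Hochberg), which is 0.0146% of the probes, and 4039 had an unadjusted p under 0.05. The 6 probes read FOS, EGR1, NR1D1, ZBTB24 and, with 2 probes, CCN1. Among the 26405 probes well above background on at least 10 of the 20 arrays, 20 passed (0.0757%), 19 of them lower and 1 higher. Each line can also be judged on its own 4 arrays. In 56 of the 41000 probes (0.137%) both late arrays lay below both first-hour arrays in 5 of 5 lines, and in 8 probes (0.0195%) they lay above them in 5 of 5 lines. The 6 probes that passed were all among those 56, a count taken from the same values as the fit and so no separate support for it. With slide as a random block, FOS, EGR1 and ZBTB24 remained past the threshold, and with the first scan batch alone FOS, ZBTB24 and 1 CCN1 probe did. The fit of the first scan batch alone had 6 probes past the threshold, 5 lower and 1 higher. With the 5 line means as pairs, where the 2 arrays of a line and period are averaged, 0 of the 41000 probes passed. The number of probes that passed was 0 without MDA-MB-361, 2 without MDA-MB-231 and 3 without ZR-75-30. It was also 0 without the 1 h arrays or without the 12 h arrays. Without the 30 min or the 24 h arrays it was 2, of which 1 was lower and 1 higher late in either fit.

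FOS, an AP-1 subunit, had the lowest fitted change of the 17843 genes. Its log2 signal over the 10 first-hour arrays ran from 1.23 through a median of 3.47 to 6.21, and over the 10 late arrays from -2.59 through 0.07 to 1.70. The ranges of the groups overlapped, whereas within each of the 5 lines both late arrays lay below both early ones. FOS fell by 3.55 ± 0.44 on the log2 scale (SE, 10 against 10 arrays, adjusted p = 0.00465, limma), so that the first-hour level was 11.7 times the late level. The line differences were -5.92 in T-47D, -4.04 in MDA-MB-361, -3.63 in HCC1954, -2.41 in ZR-75-30 and -1.74 in MDA-MB-231. The FOS probe was well above background on 8 of the 10 late arrays and lies at chr14:74817967-74818026 (hg18).

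FOSB, another AP-1 subunit, ran from -0.97 through 0.61 to 5.77 in the first hour and from -3.21 through -1.76 to 0.64 late, and was well above background on 10 and 6 of the 10 arrays. The late arrays again lay below the early ones in each line, by 1.75 to 3.04 units. Its difference of -2.46 ± 0.40 missed the threshold over all probes (adjusted p = 0.0535, limma) and passed it among the probes well above background (adjusted p = 0.0244) and in the first scan batch alone (adjusted p = 0.0115). HCC1954 at 1 h stood above the other arrays for both genes, at 6.21 for FOS and 5.77 for FOSB.

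EGR1 ran from 0.89 through 5.03 to 8.29 in the first hour and from -1.20 through 3.72 to 4.88 late. It fell by 2.19 ± 0.29 (adjusted p = 0.00778, limma), which made the first-hour level 4.57 times the late level. The line differences were -3.74 in HCC1954, -2.35 in MDA-MB-231, -2.33 in T-47D, -1.74 in MDA-MB-361 and -0.80 in ZR-75-30. In the first scan batch alone the change had the same size at -2.20, with an adjusted p of 0.0669. The EGR1 probe lies at chr5:137832790-137832849 (hg18).

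CCN1, a secreted matrix protein, was read by 3 probes, and all 3 were lower late in 5 of 5 lines. The probe with the lowest p (chr1:85821759-85821818, hg18) ran from 4.53 through 5.33 to 9.35 in the first hour and from 3.57 through 4.44 to 8.66 late. It fell by 1.01 ± 0.14 (adjusted p = 0.0152, limma), a first-hour level 2.02 times the late one. Another probe fell by 1.11 ± 0.17 (adjusted p = 0.0407), and the third had a difference of -0.86 ± 0.17 that did not pass (adjusted p = 0.117). The levels of the lines were far apart, with MDA-MB-231 and HCC1954 above the other lines at each time, whereas the line differences of the first probe kept to a range from -1.5 to -0.61.

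**Figure D1:**
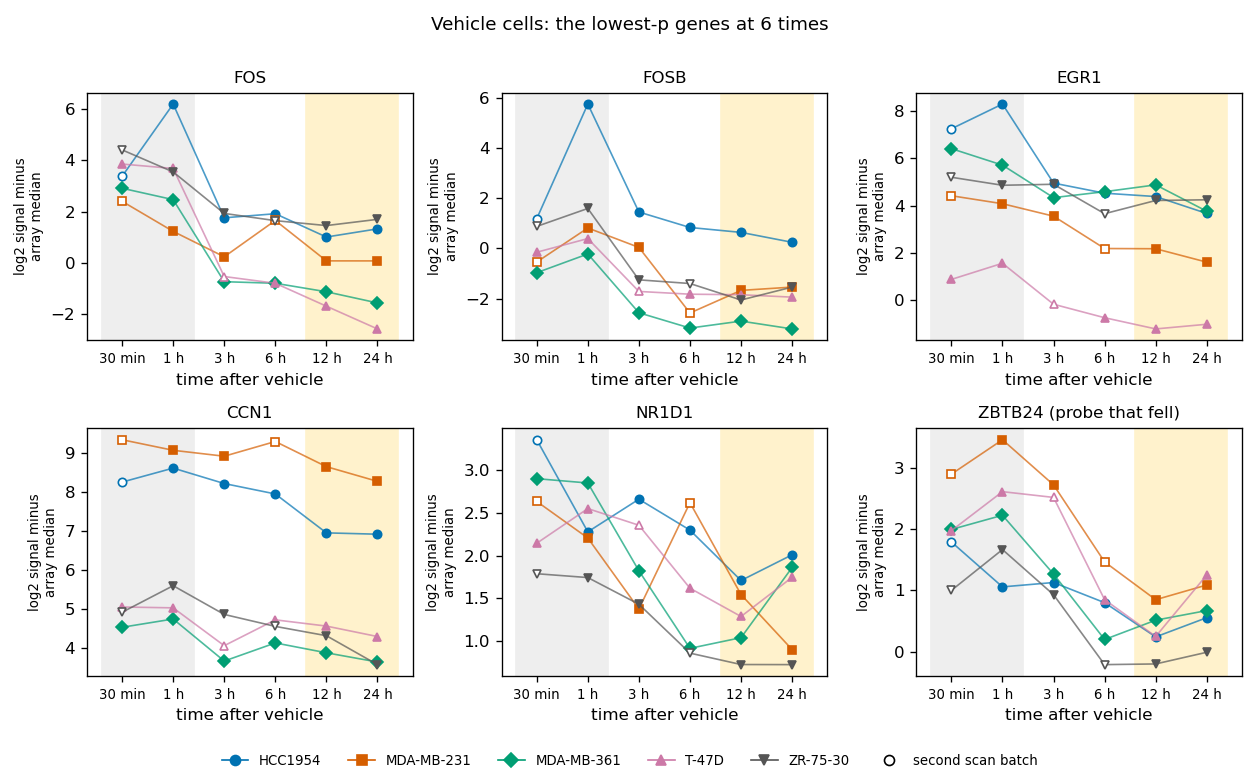
Log2 vehicle signal minus the array's median (vertical axis) at 6 times after vehicle (horizontal axis, not to scale in time) for 6 genes, with 1 point per array, a line per cell line, and open points for the second scan batch. The grey band is the first hour and the yellow band is 12 to 24 h. FOS, FOSB and EGR1 were lower at 3 h than in the first hour in most lines, and CCN1, NR1D1 and ZBTB24 were lowest at 6 h or later in most lines.

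The immediate early list, FOS and EGR1 included, was read from 1 probe a gene. Of the 22 genes of the list, 21 were well above background on at least 10 arrays, 2 passed over all probes (FOS and EGR1), and 13 were lower and 1 higher at an unadjusted p of 0.05. Over all 17843 genes, 7.58% were lower and 3.31% higher at that p, and over the 13216 genes well above background on at least 10 arrays the shares were 9.82% and 2.6%. The median difference over the list was -0.77, against -0.02 over all genes, and the medians within the lines ran from -1.45 in HCC1954 to -0.13 in MDA-MB-231. The list had been chosen with results of these arrays known, so its count is a description.

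EGR2 had a difference of -2.49 ± 0.69, but it was well above background on 7 of 10 early and 2 of 10 late arrays and the adjusted p was 0.278. The values behind it were -6.53 in HCC1954 and 0.02 in T-47D. CCN2, a matrix protein related to CCN1, was -4.33 in HCC1954, -2.86 in T-47D and 0.02 in MDA-MB-231, giving -2.15 ± 0.47 with an adjusted p of 0.185. ATF3, a stress-induced transcription factor, was lower in each of the 5 lines, between -1.68 and -0.29, at -1.18 ± 0.28 (adjusted p = 0.217). For JUN the lines parted, with -1.85 in HCC1954 and 0.06 in T-47D. DUSP1, a phosphatase that inactivates MAP kinases, was -2.35 in HCC1954 and 0.06 in MDA-MB-231. EGR3 went from -3.77 in MDA-MB-361 to 1.35 in MDA-MB-231, without passing. BTG2, an antiproliferative early gene, was the member on the other side, at 0.43 ± 0.20 and 1.16 in ZR-75-30 (adjusted p = 0.495). KLF6, a zinc finger factor with 4 probes, was lower by each of them, from -1.25 to -0.35, and its probe with the lowest p passed among the probes well above background (adjusted p = 0.0409).

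**Figure D2:**
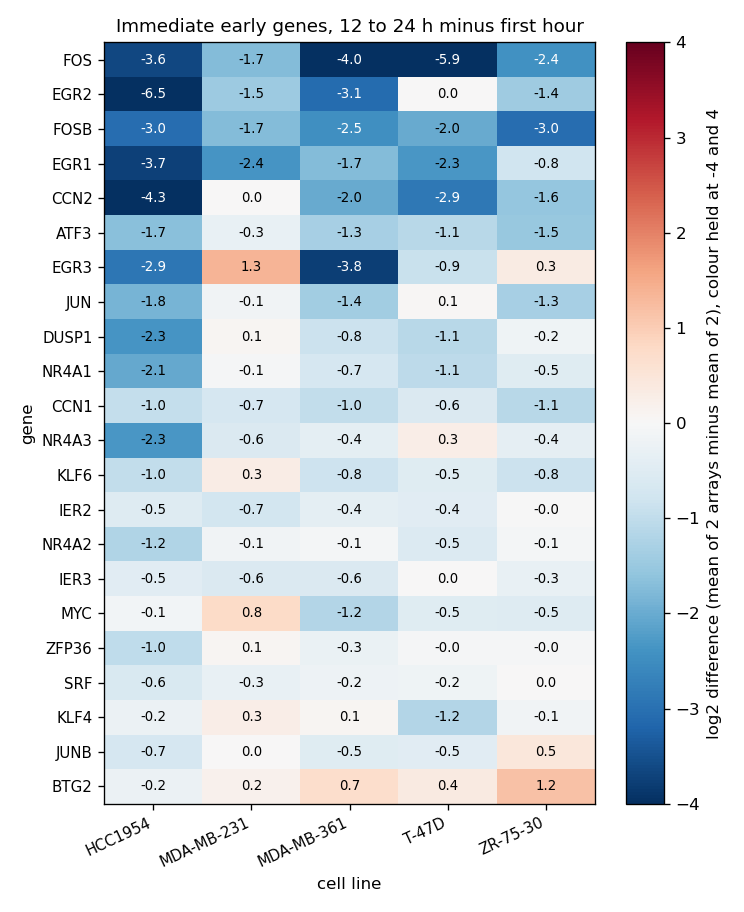
Difference in log2 vehicle signal, mean of the 12 and 24 h arrays minus mean of the 30 min and 1 h arrays, for the 22 immediate early genes (rows) in the 5 cell lines (columns). Blue is lower late and red is higher, with the colour held at -4 and 4 and the value printed in each cell. HCC1954 holds most of the deep values and MDA-MB-231 the shallow ones, and the FOS, FOSB and EGR1 rows are blue in each line.

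NR1D1, which encodes the clock repressor REV-ERBα, fell by 1.09 ± 0.16 (adjusted p = 0.0152, limma). Its probe at chr17:35502774-35502833 (hg18) ran from 1.74 through 2.41 to 3.35 in the first hour and from 0.73 through 1.42 to 2.01 late. Both late arrays lay below both early ones in 5 of 5 lines, with line differences from -1.42 in MDA-MB-361 to -0.83 in T-47D. Another NR1D1 probe, at chr17:35504725-35504784, was -0.39 ± 0.16 and did not pass (adjusted p = 0.444). Leaving out the 30 min arrays took the adjusted p of NR1D1 to 0.29, and the slide block took it to 0.0861. Of the 17 clock genes, NR1D1 alone passed, and 4 were lower and 1 higher at an unadjusted p of 0.05. Over all genes, 7.58% were lower and 3.31% higher at that p, and among genes well above background 9.82% and 2.6%. The list count was 2 lower and 1 higher with 75th percentile scaling, and likewise with slide as a random block. The period genes PER2 and PER1 were at -0.56 ± 0.21 and -0.37 ± 0.16, and CLOCK was at 0.47 ± 0.19, none of them past the adjusted threshold. The list median was -0.15.

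The lowest p of the 41000 probes belonged to a probe for ZBTB24, a zinc finger gene. It ran from 1.00 through 1.98 to 3.45 in the first hour and from -0.20 through 0.53 to 1.25 late, and fell by 1.55 ± 0.17 (adjusted p = 0.00292, limma), a first-hour level 2.92 times the late one. The line differences ran from -2.21 in MDA-MB-231 to -1.03 in HCC1954. This probe lies at chr6:109909121-109909180 (hg18), whereas the other ZBTB24 probe lies at chr6:109890680-109890739. That other probe was at 0.04 ± 0.16, with values from 2.07 to 4.53 early and 1.51 to 4.41 late, and its line differences ran from -0.31 to 0.35. The fall was measured by 1 of the 2 ZBTB24 probes.

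Further genes that were lower in 5 of 5 lines passed among the probes well above background without passing over all probes. With slide as a random block on those probes, the 20 that passed became 4, which read FOS, EGR1, ZBTB24 and CCN1, so that none of the genes named in this paragraph passed there, and with line means as 5 pairs 0 did. CXCL2, a neutrophil chemokine, was at -1.65 ± 0.27 (adjusted p = 0.0564 over all probes and 0.026 among probes well above background). It ran from -1.75 through -1.23 to 7.49 early and from -3.89 through -2.60 to 4.39 late, and was well above background on 9 and 4 arrays, and its other probe was at -0.58 ± 0.35. KLF2, a zinc finger factor, was at -1.07 ± 0.18, with 2.31 to 6.00 early and 0.63 to 5.22 late. GADD45A, a stress sensor that slows the cell cycle, was at -0.68 ± 0.12, and its 12 and 24 h arrays lay below its first-hour arrays in 5 of 5 lines. PPP1R15A, the stress-induced partner of the phosphatase that acts on eIF2α, was at -0.82 ± 0.16. DUSP2, a MAP kinase phosphatase, was at -0.72 ± 0.14 by 1 probe and at -0.39 ± 0.16 by the other. The rest of the 15 lowest p-values among the falls belonged to C1orf54 (-0.56), LIMS3 (-0.96) and VMP1 (-0.97), besides those already named. Outside the 15, CCNL2 (-0.65) and PLEKHG5 (-0.56) also passed among the probes well above background. ADM, a vasodilator peptide and hypoxia target, was at -0.86 ± 0.17 and missed it there (adjusted p = 0.0541).

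No probe rose past the threshold over all probes in the main fit. Some alternative fits over the same 41000 probes did call rises. With 75th percentile scaling 1 probe was higher and 4 were lower, and in the first scan batch alone 1 was higher and 5 lower. Without T-47D 2 were higher and 4 lower. Without the 30 min arrays, and likewise without the 24 h arrays, 1 was higher and 1 lower. IRF2, an interferon regulatory factor, had the lowest p among the probes that were higher late. It ran from -2.39 through -1.61 to -1.34 early and from -1.47 through -0.86 to -0.52 late, at 0.75 ± 0.14 (adjusted p = 0.116 over all probes, 0.0468 among probes well above background, limma), and it was the 1 probe that passed upward there. On the same probes its adjusted p was 0.182 with slide as a random block and 0.102 in the first scan batch alone, where 0 probes passed upward, and 0.0276 with 75th percentile scaling, where 5 passed upward and 12 downward. Another IRF2 probe was at 0.40 ± 0.18. CPB1, a carboxypeptidase, was well above background on 4 of 10 early and 10 of 10 late arrays, at 1.41 ± 0.28, with 2.16 in MDA-MB-231 and 0.04 in MDA-MB-361. RSRP1, a gene related to splicing factors by sequence, was at 1.18 ± 0.25 and ran from 0.94 through 2.45 to 3.20 early and from 2.13 through 3.41 to 4.71 late. DDIT4, an inhibitor of mTORC1 induced by stress and low energy, was at 0.77 ± 0.17, with 1.29 in MDA-MB-231 and 0.20 in MDA-MB-361. MEX3B, an RNA-binding protein, was at 1.28 ± 0.26. The remaining genes of the rule ranged from 0.42 to 0.74: FIGN, RBMS2, ZNF436-AS1, FBXL2, TMEM39A, ZNF510, LSS, BACH2 and ZSCAN9. None of these passed over all probes.

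CIRBP, a cold-inducible RNA-binding protein, was read by 4 probes that did not move together. The 2 overlapping probes, at chr19:1225007-1225066 and chr19:1225013-1225072 (hg18), were at 0.58 ± 0.12 and 0.54 ± 0.12, and for the first both late arrays lay above both early ones in 5 of 5 lines. A probe beside them at chr19:1225341-1225400 was at -0.15 ± 0.18. The fourth, at chr19:1223456-1223515, was at -0.54 ± 0.12, with -0.79 in MDA-MB-231 and -0.11 in ZR-75-30. None passed in the vehicle channel over all probes. RBM3, another cold-inducible protein, was at -0.22 ± 0.18. RBM3, like the last CIRBP probe, was chosen after its values were seen.

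Genes of the G1/S transition and of replication lay mostly below 0 by small amounts, and G2/M genes lay around 0. Of 30 G1/S genes, all well above background on at least 10 arrays, 0 passed the adjusted threshold, and 14 were lower and 0 higher at an unadjusted p of 0.05. The median was -0.24, with lines from -0.60 in T-47D to 0.01 in ZR-75-30. E2F1, the transcription factor that drives this set, was at -0.52 ± 0.11, ORC1, of the origin recognition complex, at -0.56 ± 0.13, and CDC45, of the replicative helicase, at -0.50 ± 0.14, and each was lower in 5 of 5 lines. The helicase subunits MCM7, MCM2, MCM3 and MCM5 lay between -0.37 and -0.32. Of 30 G2/M genes, 0 were lower and 0 higher at that p, with a median of 0.02, and ASPM (0.30), AURKB (-0.28) and KIF20A (0.32) had the lowest p. The G2/M medians of the lines parted at the end: T-47D stood at 0.75 at 12 h and at -0.53 at 24 h against its own first hour. Histone genes, whose products pack new DNA, had 4 of 19 lower and 0 higher, with H1-3 at -0.62 ± 0.12, H4C3 at -0.61 ± 0.17 and H3C4 at -0.54 ± 0.23. Genes of growth and ribosome building had 8 of 18 lower and 0 higher, with a median of -0.25. BOP1, MYBBP1A and RRP12, which act in ribosomal RNA synthesis or processing, were at -0.45, -0.38 and -0.36. The 26 cytosolic ribosomal protein genes had 0 on either side, with a median of -0.10 and lines from -0.48 to 0.35. In the first scan batch alone, 10 of 30 G1/S genes and 2 of 18 growth genes were lower, against 847 of all 17843 genes. With 75th percentile scaling, 11 of 30 G1/S genes and 5 of 18 growth genes were lower, and 4 of 30 G2/M genes were higher and 0 lower. Over all genes the split turned with that scaling from 1353 lower and 591 higher to 775 lower and 985 higher, or to 747 and 707 among genes well above background on at least 10 arrays.

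Sterol synthesis genes lay mostly above 0. Of 21 genes, 6 were higher and 1 lower at an unadjusted p of 0.05. Over all genes, 3.31% were higher and 7.58% lower at that p, and among genes well above background 2.6% and 9.82%. The list median was 0.22, and the lines ran from 0.04 in HCC1954 to 0.61 in MDA-MB-231. The late times parted in some lines. Against the line's first hour, the median at 12 h and then 24 h was -0.18 and 0.21 in HCC1954, and 0.44 and -0.16 in T-47D. It was 0.15 and 0.94 in MDA-MB-231, 0.07 and 0.10 in MDA-MB-361, and 0.33 and 0.35 in ZR-75-30. STARD4, a sterol carrier, was at 0.60 ± 0.20, SQLE, an epoxidase of the pathway, at 0.32 ± 0.12, and CYP51A1, a demethylase, at 0.40 ± 0.15. Each of these 3 was higher in 5 of 5 lines, and none passed over all probes. In the first scan batch alone 1 gene was higher and 0 lower, with a median of 0.15, against 410 higher and 847 lower of 17843 genes. With 75th percentile scaling 7 were higher and 0 lower, against 985 higher and 775 lower over all genes. Of the 11 fatty acid synthesis genes 0 were on either side, with ACLY at 0.16, SCD at 0.34 and SREBF1 at -0.17.

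Of 16 targets of NRF2, which senses oxidative stress, 0 passed the adjusted threshold, and 6 were lower and 0 higher at an unadjusted p of 0.05 (37.5% lower, against 7.58% of all genes and 9.82% of those well above background), with a median of -0.23 and lines from -0.45 in HCC1954 to -0.07 in MDA-MB-231. OSGIN1 was at -0.51 ± 0.13, HMOX1, heme oxygenase, at -0.53 ± 0.15, and AKR1C1, an aldo-keto reductase, at -0.77 ± 0.24. The 12 genes of the metallothionein list were metallothioneins, which bind zinc and copper, and the zinc exporter SLC30A1. The list had 0 on either side and a median of 0.33. It was led by the metallothioneins MT1B (0.55), MT1L (0.53) and MT1G (0.53), whose near-identical sequences can share signal. The line medians of the list ran from -0.38 in MDA-MB-231 to 1.5 in T-47D. In the first scan batch alone 8 of the 12 genes were higher and 1 lower, against 410 higher and 847 lower of all 17843 genes. In HCC1954 the median of the list was 1.24 on the 30 min array and -1.24 on the 1 h array, against the mean of both.

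**Figure D3:**
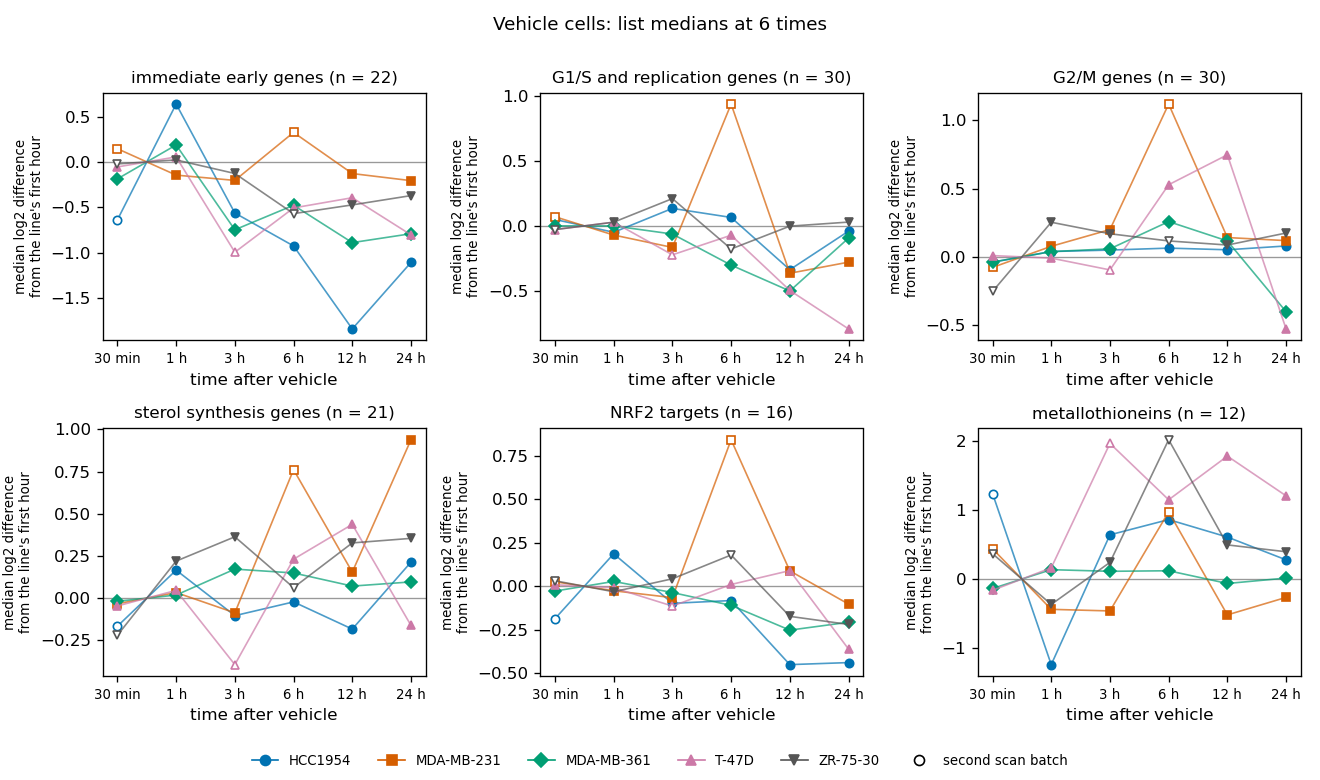
Median log2 difference of a gene list from the same line's first-hour mean (vertical axis) at 6 times after vehicle (horizontal axis) for 6 lists, with n the genes that have a probe, 1 point per array, a line per cell line and open points for the second scan batch. The immediate early medians lie below 0 at 12 and 24 h in each line, and the MDA-MB-231 array at 6 h stands high in several lists.

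The remaining stress and metabolism lists had medians between -0.17 and 0.02, and none of their members passed over all probes. Their counts at an unadjusted p of 0.05 stand against the same 7.58% and 9.82%, and the shares of the glycolysis (11.1%) and oxidative phosphorylation (13.6%) lists were near that background. Amino acid stress genes had 5 of 22 lower and 0 higher (median -0.17), with the serine synthesis enzyme PHGDH at -0.69 ± 0.18, CBS at -0.29 and TRIB3 at -0.36. Of the 27 glycolysis and hypoxia genes, 3 were lower and 1 higher (median -0.01). ADM and ENO1, an enolase, were on the low side (-0.86 and -0.42), with DDIT4 on the other (0.77). Oxidative phosphorylation genes had 3 of 22 lower, with CYC1 at -0.38, UQCRFS1 at -0.23 and NDUFV1 at -0.25. Lysosome and autophagy genes had 5 of 18 lower, with GLA at -0.38, CTSB at -0.33 and SQSTM1 at -0.35. Heat shock genes (HSF1 -0.14, DNAJA1 0.16 and DNAJB1 0.13) and unfolded protein genes (CRELD2 -0.23, SEL1L 0.25 and PDIA6 -0.17) had 0 genes on either side. Among glucose sensing and growth arrest genes KLF2, IRS2 (-0.56) and TXNIP (-0.51) were lower, and the cyclin CCNG2 was higher (0.72 ± 0.26, 5 of 5 lines). Among p53 targets and CDK inhibitors, GADD45A and GADD45B (-0.60) were lower, and TP53INP1 (0.56) and CDKN2B (0.29) were higher, all at an unadjusted p of 0.05.

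The signalling and lineage lists are given by the same counts at an unadjusted p of 0.05, to be read against 7.58% of all genes and 9.82% of those well above background that were lower. The shares of the estrogen receptor (11.1%), adhesion (8%) and interferon (11.5%) lists were near that background. Cytokine and NF-kB genes had 4 of 22 lower, namely CXCL2, the protease PLAU (-0.52), the cytokine LIF (-0.66) and TNFAIP3 (-0.38). ERK feedback genes had 2 of 12 lower and 1 higher, with DUSP6 at -0.62, DUSP2 at -0.39 and ETV5 at 0.45. The BMP and TGF-β list held targets together with the ligand genes BMP4, BMP7 and INHBA and antagonists such as GREM1 and FST. It had 4 of 20 lower, with ID1 at -0.50 ± 0.14, ID2 at -0.67 ± 0.24 and TGFBI at -0.49 ± 0.20. Estrogen receptor targets had 2 of 18 lower, RARA (-0.48) and TFF1 (-0.75), with CXCL12 at -0.28 next. Keratin and differentiation genes had 4 of 24 lower, led by S100P (-0.57), KRT16 (-0.53) and MUC1 (-0.50). With 75th percentile scaling, 1 of the 24 keratin and 1 of the 12 ERK feedback genes were lower, against 775 of all 17843 genes. The cytokine list and the BMP and TGF-β list each had 3 lower with that scaling. Adhesion and matrix genes had 2 of 25 lower and 1 higher, with MMP7 (-0.92, well above background on 5 of 20 arrays), LAMB3 (-0.53) and CDH2 (0.45). Interferon-stimulated genes had 3 of 26 lower, ISG15 (-0.43), IRF1 (-0.38) and BST2 (-0.27), with line medians from -0.38 to 0.49. None of these genes passed over all probes.

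Markers of other cell types were read as a check of the cultures. PTPRC, the pan-leukocyte marker, and DCN, a fibroblast marker, were well above background on 0 of 20 arrays, and CDH5, an endothelial cadherin, on 3. Other members of these lists were well above background more often. The fibroblast genes COL1A1 and LUM were so on 15 and 5 of 20 arrays, and the endothelial gene PECAM1 on 6. The lymphocyte genes CD3E and CD79A were well above background on 20 of 20. Of the 8 lymphocyte and monocyte, 6 endothelial and 6 fibroblast markers, 0 were lower and 0 higher at an unadjusted p of 0.05. The log2 of the summed signal of the lymphocyte and monocyte markers, in which the brightest members weigh most, ran from 2.86 to 4.79 in the first hour and from 2.85 to 5.55 late. For the endothelial markers it ran from -0.44 to 3.5 and from -0.61 to 3.14, and for the fibroblast markers from -0.77 to 2.43 and from -0.77 to 2.45. The 6 epithelial markers had CLDN4 at -0.35, CDH1 at 0.29 and KRT8 at -0.20. The line markers likewise had 0 on either side, with GATA3 at 0.17, ESR1 at 0.15 and ERBB2 at -0.15. In RNA from whole cultures, fewer cells with a transcript and less transcript per cell cannot be told apart.

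**Figure D4:**
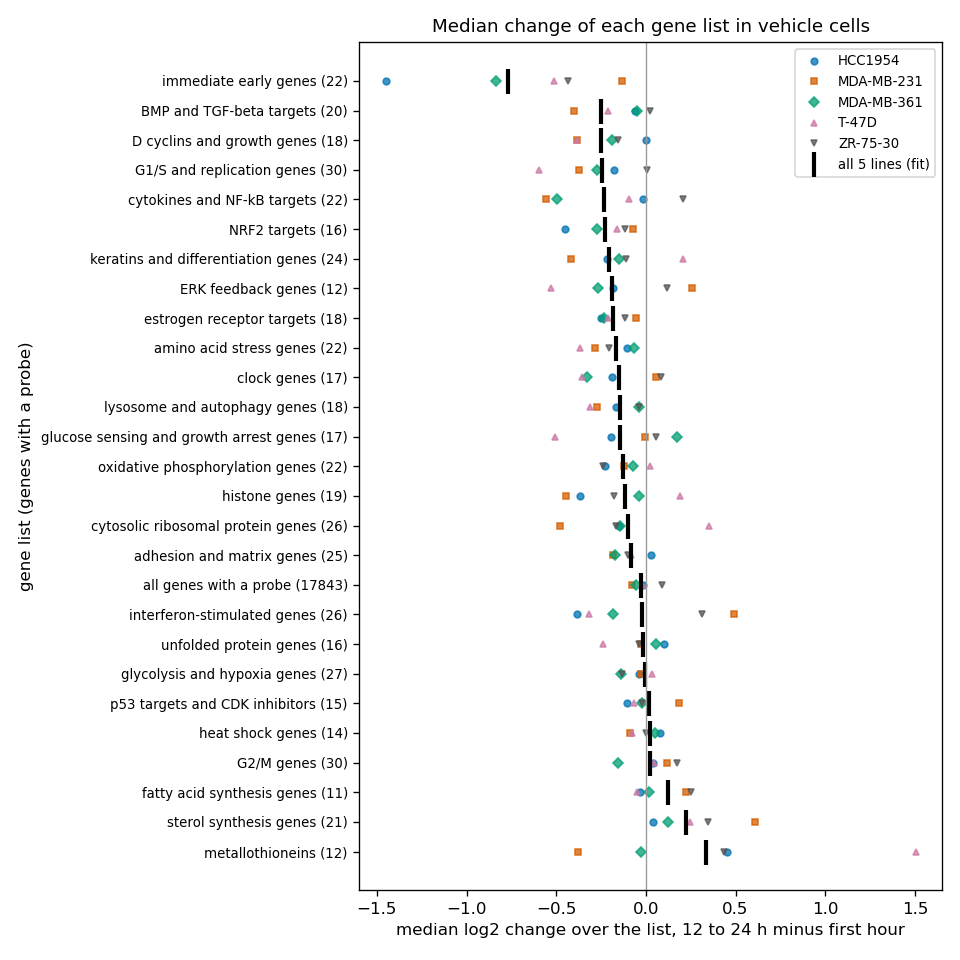
Median log2 change of each gene list between the first hour and 12 to 24 h (horizontal axis), for the fit over 5 lines (black bars) and within each line (symbols), with the number of genes that have a probe in brackets. The immediate early list lies lowest at -0.77 and the metallothionein list highest at 0.33, where the lines spread from -0.38 to 1.5.

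The arrays at 3 and 6 h placed the changes in time. Against the first hour, 2 probes passed at 3 to 6 h (0.00488% of 41000), FOS at -2.79 ± 0.38 (adjusted p = 0.00337) and EGR1 at -1.69 ± 0.28 (adjusted p = 0.0312, limma, 30 arrays). The EGR1 call was lost without the 6 h array of MDA-MB-231, which held 2235 outlier spots (adjusted p = 0.115), and in the first scan batch alone (adjusted p = 0.611), whereas FOS passed in both (0.00131 and 0.0177). The mean of FOS over the lines was 3.43 at 1 h and had reached 0.53 by 3 h, and its mean at 24 h was -0.21. For EGR1 the mean of 4.90 at 1 h compared with 3.52 at 3 h and with 2.46 by 24 h. In 4 lines a 3 or 6 h array shared a slide with a first-hour array, and on those slides FOS differed by -4.37 to -0.87, EGR1 by -3.55 to -0.75 and FOSB by -4.62 to -1.40, lower in 4 of 4 lines each. ZBTB24 differed there by -1.38 to -0.09, lower in 4 of 4 lines. NR1D1 was lower in 3 of 4 lines, from -1.5 to 0.20. GADD45A had a mean of 5.42 at 30 min, 5.71 at 6 h and 4.72 at 24 h, and a within-slide difference of 0.02 to 0.48. Over all lines but MDA-MB-361, or all but T-47D, 0 probes passed between the first hour and 3 to 6 h.

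The late arrays were also set against those of 3 to 6 h. Between 3 to 6 h and 12 to 24 h, 11 probes passed (0.0268%), 10 lower and 1 higher. CYP1A1, CYP1B1 and INPP4B shared the lowest adjusted p of them (0.00702, limma). CYP1A1 and CYP1B1 are cytochromes P450 that the dioxin receptor AHR induces. The mean of CYP1A1 over the lines was 1.94 and 1.83 in the first hour (30 min, then 1 h), 4.08 and 3.57 on the arrays of 3 and 6 h, and 1.15 and 0.79 on those of 12 and 24 h. It fell by 2.86 ± 0.44 from 3 to 6 h to the late period (adjusted p = 0.00702, limma), while its difference between late and first hour was -0.91 ± 0.36 (adjusted p = 0.424). CYP1B1 fell by 1.68 ± 0.24 (adjusted p = 0.00702), with means of 6.82 at 30 min, 8.30 at 3 h and 6.40 at 24 h, and 1 of its 20 spots in the main comparison was left out as an outlier. With 1 line left out at a time the adjusted p of CYP1A1 reached 0.257 and that of CYP1B1 reached 0.168. The 11 probes became 0 without MDA-MB-361 or ZR-75-30, 1 without HCC1954 or T-47D, and 7 without MDA-MB-231. The other AHR targets given here were chosen after their values were seen. TIPARP averaged 6.45 at 3 h and 5.19 at 24 h, AHRR 0.94 and 0.45, NQO1 5.10 and 4.88, and ALDH3A1 was well above background on 4 of 20 arrays. INPP4B, a phosphoinositide phosphatase (-1.43 ± 0.22), GADD45A (-0.81 ± 0.14) and C1orf54 (-0.66 ± 0.11) also fell from 3 to 6 h to the late period, and MARCHF1, a ubiquitin ligase, rose by 0.94 ± 0.17. HTRA3 (-1.17), EWSR1 (-0.70) and SLC20A2 (-0.56) passed as well. MARCHF1 was well above background on 6 of the 20 arrays of the main comparison. In the first scan batch alone MARCHF1 (adjusted p = 0.118, limma), HTRA3 and EWSR1 (0.0688 for each) did not pass. Without the 6 h array of MDA-MB-231, HTRA3 did not pass either (adjusted p = 0.0864, limma).

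**Figure D5:**
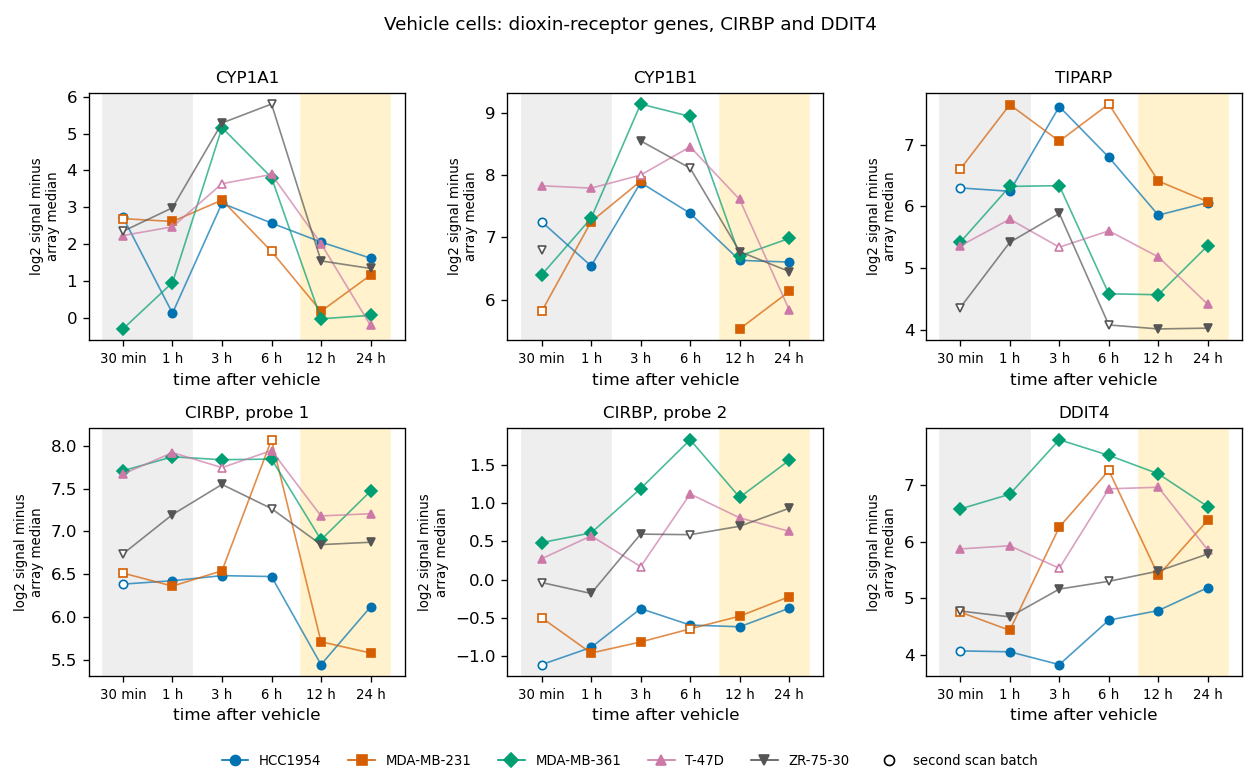
Log2 vehicle signal minus the array's median (vertical axis) at 6 times after vehicle (horizontal axis) for CYP1A1, CYP1B1, TIPARP, 2 probes of CIRBP and DDIT4, with 1 point per array, a line per cell line, open points for the second scan batch, and gaps where a spot was left out as an outlier. CYP1A1 and CYP1B1 are highest at 3 or 6 h in most lines, and the 2 CIRBP probes end on opposite sides of their first-hour levels.

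Within the late period, 0 of 41000 probes passed between 24 and 12 h (812 at an unadjusted p under 0.05, 10 arrays, limma). The probes with the lowest p were HERC5 (0.96 ± 0.20), ADGRF1 (0.91 ± 0.21), FGF7 (-0.71 ± 0.17), POM121 (0.67 ± 0.16) and TRAF3IP3 (1.01 ± 0.25), each with an adjusted p of 1. The test of whether the drift differed between lines also passed for 0 probes (2598 at an unadjusted p under 0.05), with a lowest adjusted p of 0.133 among the named genes. NECAB2 was at 4.42 and FOLH1 at 2.51 in MDA-MB-231, against -0.50 to 0.25 and -0.42 to 0.66 in the other lines. ERVMER34-1 was at 2.61 in MDA-MB-231, HELB at -3.09 in T-47D, and HIC1 at -2.21 in MDA-MB-361. In the first scan batch alone 6 probes passed this test.

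In the cultures given BMP7, FOS, EGR1, ZBTB24, NR1D1 and 1 CCN1 probe also fell. They were separate wells read on the same arrays, so they share the slides with the vehicle samples. In that channel 10 probes passed between the first hour and 12 to 24 h (0.0244%), 9 lower and 1 higher. The split was 13 lower and 10 higher with 75th percentile scaling, and 37 lower and 12 higher among probes well above background. FOS fell by 3.39, EGR1 by 2.36, ZBTB24 by 1.51, NR1D1 by 1.23, CCN1 by 1.20 and CXCL2 by 1.78, with adjusted p-values from 0.00156 to 0.0389 (limma). The second of the overlapping CIRBP probes rose by 0.95 ± 0.12 there (adjusted p = 0.00379). The immediate early list had a median of -0.85, with 18 of 22 lower at an unadjusted p of 0.05, and the G1/S list had 20 of 30 lower with a median of -0.34. Over all genes in that channel, 1283 of 17843 were lower at that p. Among genes well above background on at least 10 vehicle arrays, 1184 of 13216 were. The log ratio of BMP7 to vehicle tests whether the change with time differed, and 2 probes passed (0.00488%), the receptor FGFR3 (0.57 ± 0.08) and the transcript CN479126 (1.32 ± 0.15). FGFR3 did not pass with 75th percentile scaling (adjusted p = 0.0535) or in the first scan batch alone (adjusted p = 0.333), and CN479126 passed in both (0.00669 and 0.0131). The 10 probes of the BMP7 channel became 6 when MDA-MB-231 was left out, 5 for MDA-MB-361, 4 for ZR-75-30 and 3 for T-47D, and the log ratio gave 0 without ZR-75-30 and 5 without T-47D. ID1 and ID2, direct targets of BMP signalling, were at -0.50 and -0.67 in vehicle cells and at 0.40 and 0.23 with BMP7, and their log ratio changed by 0.92 and 0.93 (adjusted p = 0.092 and 0.066). The log ratio of FOS changed by 0.18 and that of EGR1 by -0.15.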

How the data were processed

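RNA of vehicle and BMP7 cultures was hybridised together on 2-colour Agilent whole genome arrays, without dye swaps or repeat arrays. The intensities were deposited by the authors as scanner output, already background subtracted, spatially corrected and dye normalised on each array (Feature Extraction 9.5.1.1 per the file headers, hg18). The green processed intensities were taken to log2 after control and outlier spots were left out, and each array's median was subtracted. Each probe was fitted with limma 3.58.1 in R 4.3.3, with cell line as a block, and p-values were adjusted over all 41000 probes by the Benjamini-Hochberg method. With 1 array per line and time, p-values measure the spread over lines and over the 2 times of a period. The number of arrays limits the precision. Probes were named through RefSeq accessions or symbols (27745 of 41000). A list gene was read from its probe with the highest mean signal, and a gene named from the fit from its probe with the lowest p. As under 10 probes passed, the 15 lowest p-values in each direction were named, among probes with a symbol that were well above background on at least 10 arrays and moved one way in 5 of 5 lines. Each list contributed its 3 lowest p-values. The comparison and the 31 lists were chosen with earlier results of these data known. The fits were tested on simulated data. Alternatives in scaling, background, filters, slide, scan batch, times and lines were run. The authors' processed value table was not used here.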

Additional observations from a re-analysis of the deposited data

Results flagged for a closer look

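Of 40 genes, the line differences of 2 held 1 line apart from the other 4 by Dixon's test, which chance gives in about 1 of 20 groups. TIPARP was at -0.31 in HCC1954 and between -0.90 and -0.78 in the other lines. The CIRBP probe at chr19:1223456-1223515 (hg18) was at -0.11 in ZR-75-30 and between -0.79 and -0.60 in the other lines. The change with time differed between the BMP7 and vehicle channels for 2 probes (limma on the log ratio). FGFR3 was at -0.30 in vehicle and 0.24 with BMP7, a difference of 0.57 ± 0.08 (adjusted p = 0.0363), with an adjusted p of 0.0535 under 75th percentile scaling, 0.333 in the first scan batch alone and up to 0.448 with a line left out. CN479126 was at -0.69 in vehicle and 0.60 with BMP7, a difference of 1.32 ± 0.15 (adjusted p = 0.00354), with up to 0.212 when a line was left out.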

How the results depend on the processing

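The 6 probes of the vehicle comparison became 3 with quantile normalisation, 3 with slide as a random block, 12 with an intensity trend in the variance, 20 and 22 among probes well above background on at least 10 or on all 20 arrays, 2 without the 30 min arrays, 0 without the 1 h arrays, 0 without the 12 h arrays, 2 without the 24 h arrays, and 0 for the 5 line means as pairs, with 0 to 7 over the lines left out (0 without MDA-MB-361). Over all probes, 75th percentile scaling gave 5, of which 1 was higher late. Of the 2 without the 30 min arrays, and of the 2 without the 24 h arrays, 1 was higher late. Among probes well above background, alternatives chosen after seeing the data gave 10 for the first scan batch alone, 4 with slide as a random block, 17 with 75th percentile scaling and 0 for line means. The line by period test gave 6 in place of 0 in the first scan batch alone. From the first hour to 3 to 6 h, the 2 probes became 5 among probes well above background on enough arrays of the fit, 1 without the 6 h array of MDA-MB-231 (2235 outlier spots, chosen after seeing the data), and 0 to 2 over the lines left out. From there to 12 to 24 h, the 11 became 21 with that filter, 18 in the first scan batch alone and 0 to 7 over the lines left out. The 10 of the BMP7 channel became 49 with the filter, 23 with 75th percentile scaling and 3 to 9 over the lines. The 2 of the log ratio became 14, 1 and 0 to 5. AHRR turned from 0.06 to -0.20 in the first scan batch alone, with and without the background filter, and with scan batch as a term, to -0.25 without 30 min and -0.0047 without 24 h, and ran from -0.084 to 0.24 over the lines left out. ALDH3A1 turned from -0.25 to 0.042 without 1 h and ran from -0.45 to 0.028 over the lines. The cause of these changes was not tested. All others of the 40 probes refitted under these alternatives kept their sign. The analysis paired by line is the one of the 5 line means, with 0 probes past the threshold.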
